A study of Mus musculus with 31 samples.

Results

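The CXC chemokine genes Cxcl1, Cxcl2, Cxcl3, Cxcl9, Cxcl10, Cxcl12 and Cxcl16 were followed in dendritic cells and macrophages sorted from the mouse heart. The 7 genes were chosen by symbol, and all 7 were found among the 24421 gene symbols counted. Hearts came from Balb/c mice aged 8 to 12 weeks, either after myocardial infarction (MI), made by tying off the left anterior descending coronary artery for good, or in the steady state (SS). The cells were 2 kinds of conventional dendritic cell, cDC1 and cDC2, and 2 kinds of monocyte-derived cell, moDC (positive for CD11c) and macrophage (negative for it), each from MI and from SS hearts. Each group had 4 libraries, except MI cDC2 with 3. How long after ligation the hearts were taken, whether any SS mouse had a sham operation and which antibodies were used for sorting are not stated. Whether hearts were pooled is not stated either, and p-values therefore measure the spread between these samples only. Any other difference between the handling of MI and SS hearts cannot be told apart from MI.

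CXC chemokines are small secreted proteins, named for a pair of cysteines with another residue between them, that guide leukocytes through G protein-coupled receptors. Cxcl1, Cxcl2 and Cxcl3 act on Cxcr2 and draw neutrophils, and they are classical targets of NF-kB. Cxcl9 and Cxcl10 are induced by interferons, and they act on Cxcr3 of activated T cells, natural killer cells and some dendritic cells. Cxcl12 acts on Cxcr4 and is bound by the atypical receptor Ackr3. In the heart it is made mainly by stromal cells such as fibroblasts, pericytes and endothelium. Cxcl16 is made as a membrane protein that also takes up oxidised lipoprotein, is cut from the cell by Adam10 and Adam17, and acts on Cxcr6. Macrophages and dendritic cells are known sources of it.

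On mm10 (GENCODE M21), Cxcl3, Cxcl1 and Cxcl2 lie in that order on the plus strand of chromosome 5, at 90786103 to 90789600, 90891241 to 90893115 and 90903871 to 90905938. Cxcl9 (92321347 to 92328079) and Cxcl10 (92346638 to 92348889) lie on its minus strand. Cxcl12 lies on chromosome 6 at 117168535 to 117181367 (plus strand), and Cxcl16 on chromosome 11 at 70453983 to 70459984 (minus strand). All are protein-coding. Cxcl10 lies within Art3, and Cxcl16 overlaps Zmynd15 over 552 bases, both on the opposite strand, and whether the counting used strand is not stated.

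The promoters of the neutrophil-attracting genes and of Cxcl9 and Cxcl10 are shown because each holds an NF-kB like motif, and that of Cxcl10 also an interferon response motif. RefSeq promoter sequences (GRCm38.p6, the mm10 assembly) were found for 6 of the 7 genes, all but Cxcl16. The 5 with a match to the motifs searched are printed 5′ to 3′ on the gene's strand, from 250 bases before the RefSeq start, cut where the GENCODE gene begins. Capitals mark matches on either strand to an NF-kB like motif (GGGA and CC with any 4 bases between them), to the interferon response motif ISRE (TTTC and TTTC with any 2 bases between them), to GGGATTTCC and to GGGAATTTCCC, which overlap in places.
Cxcl1: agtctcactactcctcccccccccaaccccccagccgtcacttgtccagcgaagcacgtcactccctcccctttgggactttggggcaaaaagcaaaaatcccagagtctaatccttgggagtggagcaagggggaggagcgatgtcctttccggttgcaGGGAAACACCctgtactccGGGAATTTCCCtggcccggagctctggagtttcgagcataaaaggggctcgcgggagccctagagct
Cxcl2: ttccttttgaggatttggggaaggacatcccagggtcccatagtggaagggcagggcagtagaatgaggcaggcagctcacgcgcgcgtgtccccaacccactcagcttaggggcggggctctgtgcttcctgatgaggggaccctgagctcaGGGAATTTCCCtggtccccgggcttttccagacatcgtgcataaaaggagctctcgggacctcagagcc
Cxcl3: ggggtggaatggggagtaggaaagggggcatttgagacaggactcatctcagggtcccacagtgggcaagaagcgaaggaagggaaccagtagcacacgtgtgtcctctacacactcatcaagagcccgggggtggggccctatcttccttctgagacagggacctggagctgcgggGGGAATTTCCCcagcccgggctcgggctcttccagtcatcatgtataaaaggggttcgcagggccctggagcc
Cxcl9: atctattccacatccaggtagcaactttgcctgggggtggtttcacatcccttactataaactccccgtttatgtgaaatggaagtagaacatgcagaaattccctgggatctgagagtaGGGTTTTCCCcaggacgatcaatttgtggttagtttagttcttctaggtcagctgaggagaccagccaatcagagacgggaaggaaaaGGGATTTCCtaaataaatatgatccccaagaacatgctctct
Cxcl10: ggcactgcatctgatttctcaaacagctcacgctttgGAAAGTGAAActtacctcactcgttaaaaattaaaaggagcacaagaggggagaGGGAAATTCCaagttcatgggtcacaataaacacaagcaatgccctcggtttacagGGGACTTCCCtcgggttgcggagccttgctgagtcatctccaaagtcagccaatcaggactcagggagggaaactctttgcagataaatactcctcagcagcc
These stretches are chr5:90890995-90891240, chr5:90903649-90903870 and chr5:90785851-90786100 on the plus strand, and chr5:92328080-92328329 and chr5:92348890-92349139 on the minus strand. The longest run that the windows of Cxcl1, Cxcl2 and Cxcl3 share is GGGAATTTCCC, whose first base lies 71, 97 and 73 bases before the RefSeq start. Of 32851 RefSeq promoter windows of 250 bases, 14 hold it (0.0426%), and it was searched for after these sequences had been read. The looser NF-kB like motif is in 17.6% of them, and Cxcl1 holds it a second time, as GGGAAACACC at 90 bases. Cxcl10 holds it in 2 places, GGGAAATTCC at 159 and GGGACTTCCC at 103 bases, and holds GAAAGTGAAA, the ISRE motif on the other strand, at 213 bases. The ISRE motif is in 2.98% of promoters. Cxcl9 holds GGGTTTTCCC, the NF-kB like motif on the other strand, at 130 bases and GGGATTTCC (0.283% of promoters, also added after reading) at 42 bases. The ISRE motif was found in the Cxcl10 window alone. TTCNNNGAA (GAS like, 7.02% of promoters) was also searched for, and was found in none of the 6 windows. No match to any of these patterns was found in the Cxcl12 window. A match is a description of letters and says nothing of binding in these cells.

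Libraries held 9148624 to 16531349 reads in genes. Reads in no annotated feature made up 11.6% to 16.9% in SS libraries numbered 1 and 4, 6.42% to 9.26% in SS libraries numbered 2 and 3, and 6.85% to 10.9% in MI libraries. The dendritic cell populations carried their own markers, and SS cDC2 carried macrophage markers as well. Summed cDC1 markers (6 genes) were 5697 to 6247 CPM (counts scaled to a common library total) in MI cDC1 and 5244 to 6247 CPM in SS cDC1, and at most 793 CPM elsewhere. Summed cDC2 markers (5 genes) were 3300.2 to 4194 CPM in MI cDC2 and 3016 to 4503 CPM in SS cDC2, and at most 1332 CPM elsewhere. Macrophage markers (8 genes) summed to 4129 to 7124 CPM in MI cDC2 and 17785 to 29029 CPM in SS cDC2, without overlap. In moDC the sum was 18534 to 23494 CPM in MI and 26664 to 34021 CPM in SS, and in macrophages 28166 to 33823 CPM in MI and 32845 to 40731 CPM in SS. In this sum SS cDC2 replicates 2 and 3 (29029 and 27737 CPM) lay within the range of SS moDC. SS cDC2 replicates 1 and 4 (17785 and 18412 CPM) lay below all moDC libraries. In cDC1 it was at most 1168 CPM in MI and 2110.0 CPM in SS.

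Compared per kilobase of exon, a scale on which genes can be set side by side, Cxcl16 was the highest of the 7 genes in 7 of the 8 groups, and Cxcl2 was higher in SS cDC2. Mean Cxcl16 levels were 126 CPM per kilobase in MI cDC1, 215 in MI cDC2, 333 in MI moDC and 277 in MI macrophages. In SS they were 134 in cDC1, 90.4 in cDC2, 241 in moDC and 182 in macrophages. Cxcl2 reached 161 CPM per kilobase in MI macrophages and 105 in SS cDC2, Cxcl1 at most 56.6 (SS macrophages) and Cxcl3 at most 2.31 (SS moDC). cDC1 differed in its makeup, since Cxcl9 was its second chemokine by level, at 8.51 CPM per kilobase in MI and 21.9 in SS, while Cxcl2 stood at 1.22 in MI and 0.950 in SS.

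**Figure D1:**
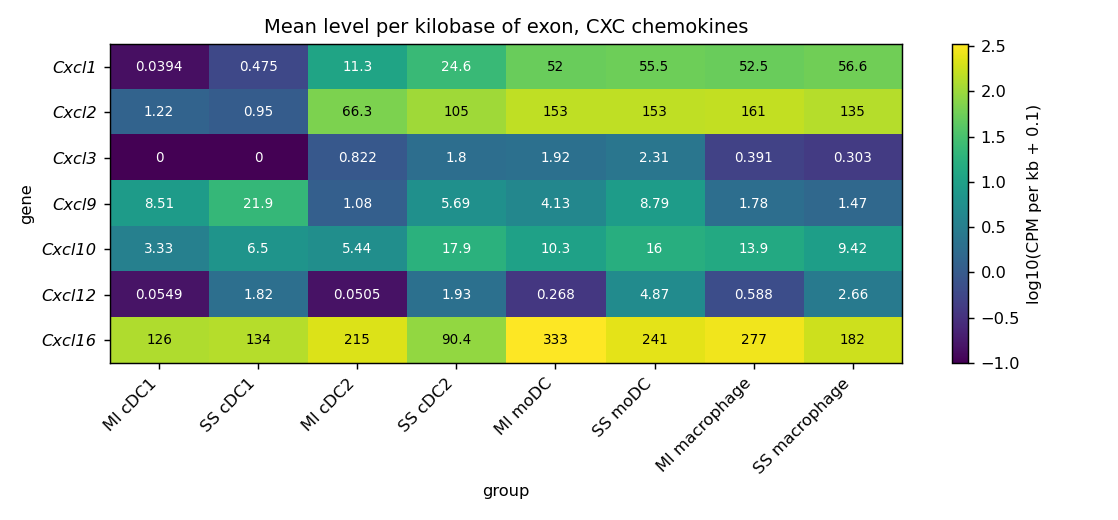
Mean level of each chemokine gene in CPM per kilobase of exon (numbers in cells; colour on a log10 scale after adding 0.1), by gene and group, MI left of SS. Cxcl16 leads in every column but SS cDC2 (90.4, against 105 for Cxcl2), and cDC1 columns are near 0 for Cxcl1 and Cxcl3.

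Levels differed among the 4 cell types for 7 of 7 genes in MI and 6 of 7 in SS (edgeR quasi-likelihood F test, adjusted p under 0.05), the exception in SS being Cxcl12 (adjusted p = 0.276). Among all 13039 genes tested, 47.5% differed in MI and 50.1% in SS, so cell type differences were common. Pair by pair in MI, 26.8% of all genes differed between cDC1 and cDC2, 36.0% between cDC1 and moDC, 45.4% between cDC1 and macrophages, 10.1% between cDC2 and moDC, 26.4% between cDC2 and macrophages and 10.8% between moDC and macrophages. In SS, in the same order, the shares were 28.2%, 33.3%, 42.8%, 15.4%, 35.2% and 12.9%. In bulk samples of this kind, fewer cells expressing a gene and less RNA per cell cannot be told apart.

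By count, most calls for MI against SS were in cDC2. There 1 gene (Cxcl16) rose and 4 (Cxcl1, Cxcl9, Cxcl10 and Cxcl12) fell, against a background of 11.0% of all genes called, 4.41% higher and 6.63% lower. In cDC1 0 rose and 2 (Cxcl1 and Cxcl12) fell, while of all genes 8.88% were called, 2.16% higher and 6.73% lower. In moDC 0 rose and 1 (Cxcl12) fell, while 4.84% of all genes were called, 1.52% higher and 3.32% lower. In macrophages 1 (Cxcl16) rose and 0 fell, while 7.39% of all genes were called, 4.01% higher and 3.37% lower. The median log2 fold change of the 7 genes was -1.13 in cDC2, -0.97 in cDC1, -0.27 in moDC and 0.26 in macrophages, and that of all genes was -0.03 in each. The median in cDC1 includes a fitted value for Cxcl3, which had no read there. These counts moved with the fit: the macrophage call was lost without any 1 of its 8 libraries, the cDC1 count was 1 without SS replicate 2, and the cDC2 count was 3 without MI replicate 2 or MI replicate 3. A test of the difference found the MI effect to vary among the 4 cell types for 3 of 7 genes, Cxcl1, Cxcl10 and Cxcl16, beside 6.80% of all genes. The result for Cxcl1 (adjusted p = 0.0428) was lost on leaving out any 1 of 18 of the 31 libraries (highest adjusted p 0.0940).

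**Figure D2:**
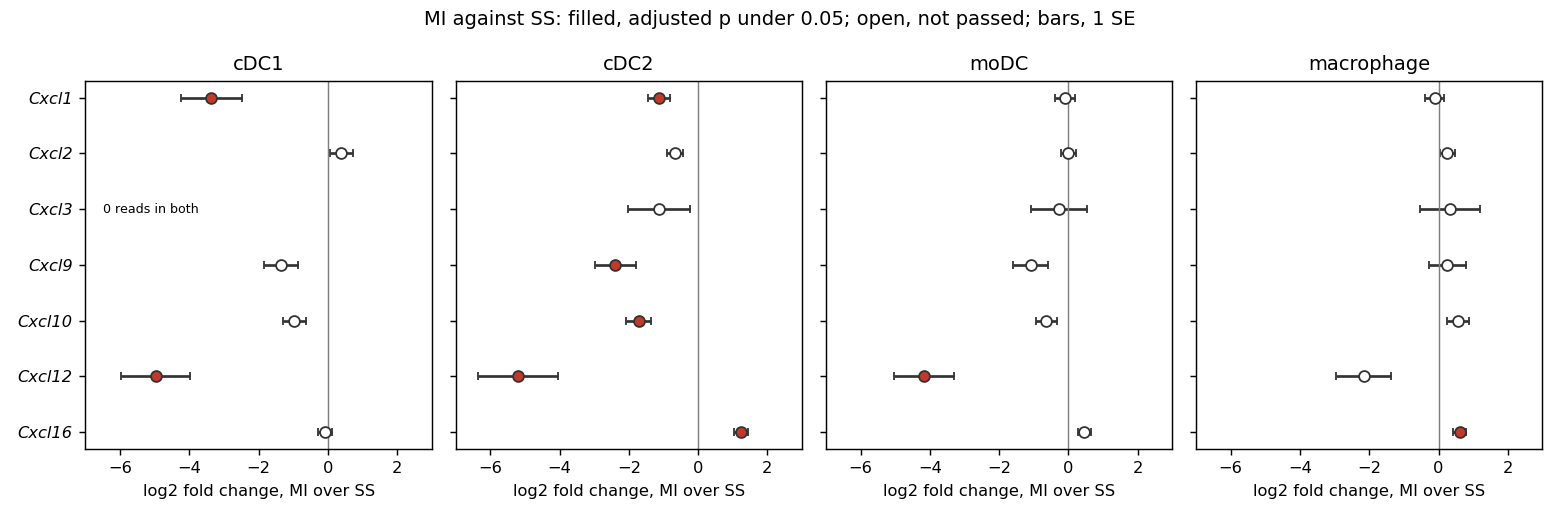
Log2 fold change of MI over SS (horizontal axis) for each gene in each cell type, with bars of 1 standard error; filled points had an adjusted p under 0.05. Cxcl12 lies below 0 in all 4 panels, by -2.16 to -5.20, and Cxcl16 stands at 1.25 in cDC2 and -0.08 in cDC1.

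**Figure D3:**
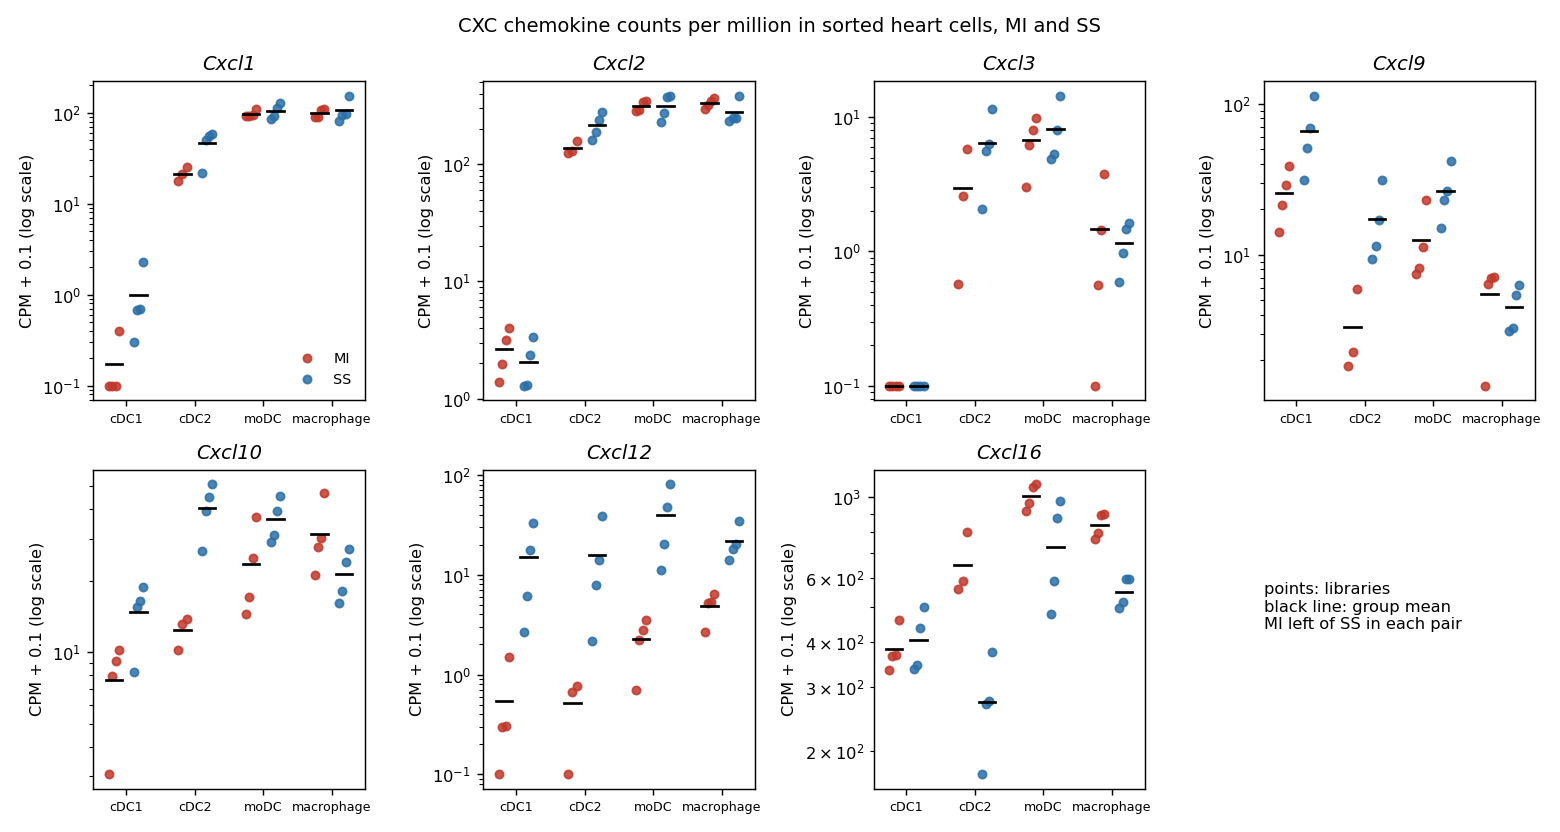
CPM of each gene in each library (vertical axis, log scale after adding 0.1) by cell type, MI left of SS, with the group mean as a black line. Cxcl1, Cxcl2 and Cxcl3 are lowest in cDC1, Cxcl9 is highest there, and for Cxcl12 every MI library lies below every SS library of its cell type.

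Cxcl1 and Cxcl2 were genes of macrophages, moDC and cDC2, and were close to absent from cDC1. In macrophages Cxcl1 was at 88.7, 88.8, 106 and 110.0 CPM in MI, against 80.1, 154, 95.6 and 94.6 CPM in SS. In moDC it was at 92.6, 109, 92.9 and 94.9 CPM in MI, against 112, 128, 92.9 and 84.3 CPM in SS. The groups overlapped in both cell types, and the log2 fold changes were -0.11 ± 0.28 (SE) in macrophages and -0.10 ± 0.28 in moDC (adjusted p = 0.898 and 0.919). SS replicate 2 was the highest library in both, and in macrophages the sign turned to 0.13 without it.

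In cDC2 Cxcl1 stood at 25.0, 21.0 and 17.4 CPM in MI and at 21.5, 58.0, 49.8 and 55.5 CPM in SS. Of the SS libraries 3 lay above all MI libraries, and SS replicate 1 lay among them. Cxcl1 fell to 21.2 ± 3.80 CPM in MI cDC2 (SD, n = 3), against 46.2 ± 16.8 CPM in SS cDC2 (n = 4), with a log2 fold change of -1.13 ± 0.32 (SE) and an edgeR adjusted p of 0.0194. The call was lost without MI replicate 2 (adjusted p = 0.0736), MI replicate 3 (0.0957) or SS replicate 2 (0.0692).

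In cDC1 Cxcl1 was counted in 3 reads in all in MI (0, 0.296, 0 and 0 CPM) and in 41 reads in SS (0.601, 2.18, 0.198 and 0.585 CPM). Reads were seen in 1 of 4 MI libraries and in 4 of 4 SS libraries, at levels where 1 MI and 1 SS library overlapped. The summed level was lower in MI, with an SS over MI ratio of 11.6 (exact 95% counting interval 3.71 to 58.6), and the edgeR adjusted p was 0.0135. Without SS replicate 2 it was 0.0811. The MI effect on Cxcl1 was more negative in cDC1 than in macrophages, by 3.25 on the log2 scale (difference -3.25 ± 0.94 SE, adjusted p = 0.0460, where 4.04% of all genes were called).

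Cxcl2 was higher than Cxcl1 per kilobase in all 8 groups. In macrophages it was at 297, 323, 365 and 344 CPM in MI, against 234, 383, 249.9 and 247 CPM in SS. In moDC the values were 343, 346, 287 and 292 CPM in MI and 386, 374, 276 and 230.4 CPM in SS. The groups overlapped in both (log2 fold changes 0.25 ± 0.21 and 0.00 ± 0.21 SE, adjusted p = 0.570 and 1). In cDC2 it was at 157, 129 and 125 CPM in MI, against 161, 278, 189 and 237 CPM in SS. The MI libraries all lay below the SS libraries, narrowly in the case of the nearest pair, and the test did not pass (log2 fold change -0.66 ± 0.23 SE, adjusted p = 0.0677). In cDC1 it was at 3.91, 1.28, 1.86 and 3.07 CPM in MI and at 1.20, 3.22, 1.19 and 2.24 CPM in SS, with adjusted p = 0.589.

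The order of the cell types for Cxcl1 was cDC1, cDC2 and then moDC with macrophages, in both states. cDC1 was below cDC2 (adjusted p = 6.37e-12 in MI and 1.24e-12 in SS), and cDC2 below moDC (2.23e-05 and 0.00466). moDC and macrophages did not differ beyond their spread (0.990 and 0.974). In MI the summed Cxcl1 level in cDC2 was 286 times that of cDC1 (exact 95% counting interval 97.3 to 1388). Cxcl2 was also lowest in cDC1 (cDC1 against cDC2, adjusted p = 7.27e-16 in MI and 2.60e-17 in SS). cDC2 lay below moDC in MI (6.83e-04), while in SS cDC2 and macrophages, its neighbours in level, did not differ by the test (0.194).

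Cxcl3 was a low gene, and no read of it was counted in any of the 8 cDC1 libraries. In moDC it was at 2.91, 9.81, 7.98 and 6.10 CPM in MI, against 4.78, 7.89, 14.4 and 5.18 CPM in SS. In cDC2 it was at 0.471, 5.65 and 2.51 CPM in MI, against 1.96, 6.18, 11.5 and 5.52 CPM in SS. Macrophages had 0.459, 3.67, 1.34 and 0 CPM in MI and 1.53, 0.490, 0.867 and 1.36 CPM in SS. MI and SS overlapped in the 3 cell types with reads, and none passed the test (edgeR adjusted p = 0.922, 0.481 and 0.899 in moDC, cDC2 and macrophages). Against the floor of 3 counts over the group, Cxcl3 was at least 38.1-fold higher in cDC2, 90.0-fold in moDC and 15.7-fold in macrophages than in cDC1 of MI hearts. In SS these bounds were 97.3, 126 and 16.9. In SS, cDC2 lay above macrophages (adjusted p = 0.0229). In MI cDC2 and macrophages were not told apart (0.411), and cDC2 and moDC in neither state (0.499 in MI and 0.824 in SS). Unlike Cxcl1 and Cxcl2, Cxcl3 had a lower mean in macrophages than in moDC and cDC2 in both states.

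Other transcripts were read beside these genes. Summed neutrophil markers (7 of the 8 listed were found) were 19.4 to 33.1 CPM in MI cDC2 and 67.9 to 162 CPM in SS cDC2. They were at most 1.03 CPM in MI cDC1 and 6.73 CPM in SS cDC1, where Camp and Ngp were at 0 in both. In moDC they were 123 to 138 CPM in MI and 154 to 457 CPM in SS, and in macrophages 173 to 213 CPM in MI and 116 to 234 CPM in SS. S100a9, Camp and Ngp were at 0 in MI cDC2, and Camp and Ngp in MI moDC. Only 1 marker had reads in MI cDC2 replicate 1 (29.9 CPM), and only 2 in MI macrophage replicate 3 (173 CPM). Whether the sorted cells make such transcripts themselves was not tested, so the sums may not measure neutrophils. Immediate early and heat shock transcripts, which enzymatic digestion of tissue can induce, summed to 13866 to 15967 CPM in MI cDC2 and 14760.1 to 23246 CPM in SS cDC2. In MI cDC1 the sum was 9009 to 10366 CPM and in SS cDC1 9447 to 15915 CPM. In moDC it was 10717.5 to 12357 CPM in MI and 13411 to 24430 CPM in SS. Macrophages had 13550 to 19644 CPM in MI and 13677 to 29922 CPM in SS. In moDC the neutrophil and the immediate early sums were both lower in MI without overlap, while Cxcl1, Cxcl2 and Cxcl3 were not called there. The part of these transcripts in the Cxcl1 results was not tested. Cxcl1, Cxcl2 and Cxcl3 are related copies, and how reads that match more than 1 place were counted is not given.

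Cxcl9 had its highest mean in cDC1, the cell type with the least Cxcl1, Cxcl2 and Cxcl3. In cDC1 it was at 38.6, 14.1, 21.2 and 28.9 CPM in MI, against 51.0, 113, 69.5 and 31.0 CPM in SS. Of the MI libraries 3 lay below all SS libraries, and MI replicate 1 lay within them. The mean was 25.7 ± 10.5 CPM in MI cDC1 and 66.2 ± 35.1 CPM in SS cDC1 (SD, n = 4 each), a log2 fold change of -1.37 ± 0.49 (SE) that did not pass (edgeR adjusted p = 0.0819; DESeq2 0.0332). In moDC it was at 7.38, 8.12, 11.2 and 23.1 CPM in MI and at 41.7, 26.2, 23.1 and 14.9 CPM in SS (log2 fold change -1.09 ± 0.49 SE, adjusted p = 0.230). In macrophages the values were 6.89, 6.32, 7.01 and 1.26 CPM in MI and 3.05, 6.18, 5.30 and 3.21 CPM in SS, with overlap (0.26 ± 0.53 SE, adjusted p = 0.862).

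In cDC2 Cxcl9 was at 5.84, 2.18 and 1.73 CPM in MI and at 9.22, 16.8, 31.2 and 11.4 CPM in SS, without overlap. It fell by 2.39 ± 0.60 on the log2 scale (5.24-fold lower in MI, edgeR adjusted p = 0.00825). The call was lost without MI replicate 2 (0.0628) or MI replicate 3 (0.0592), and the log2 fold change was -3.12 without MI replicate 1. Among cell types in SS, cDC1 lay above moDC (adjusted p = 0.0375), cDC2 and moDC did not differ by the test (0.431), and cDC2 lay above macrophages (0.00443). In MI no neighbours in level differed (cDC1 and moDC 0.105, moDC and macrophages 0.136, cDC2 and macrophages 0.435). Further apart in level, cDC1 lay above cDC2 (edgeR adjusted p = 3.69e-04) and macrophages (6.93e-04) in MI, and moDC above cDC2 (0.0354).

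Cxcl10 was highest by mean in cDC2 in SS and in macrophages in MI. In cDC2 it was at 13.7, 13.0 and 10.1 CPM in MI and at 26.5, 39.3, 44.9 and 50.7 CPM in SS. The groups did not overlap, as held for 23.1% of all genes in cDC2. It fell to 12.3 ± 1.88 CPM in MI cDC2 (SD, n = 3), against 40.4 ± 10.4 CPM in SS cDC2 (n = 4), 3.29-fold lower (log2 fold change -1.72 ± 0.36 SE, edgeR adjusted p = 0.00112). In macrophages it was at 27.6, 20.9, 30.0 and 46.8 CPM in MI and at 23.9, 27.1, 17.9 and 15.9 CPM in SS. These groups overlapped, with a log2 fold change of 0.56 ± 0.31 (SE) and adjusted p = 0.319.

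The MI effect on Cxcl10 differed among the cell types (adjusted p = 0.00882). It was more negative in cDC2 than in macrophages (difference -2.28 ± 0.47 SE, adjusted p = 0.00249, where 4.49% of all genes were called) and in cDC1 than in macrophages (difference -1.53 ± 0.45 SE, adjusted p = 0.0468). In cDC1 Cxcl10 was at 7.82, 2.96, 9.10 and 10.1 CPM in MI and at 16.3, 18.7, 8.14 and 15.4 CPM in SS. SS replicate 3 lay among the MI libraries, and the test did not pass (log2 fold change -0.97 ± 0.33 SE, adjusted p = 0.0592). In moDC the values were 16.998, 14.4, 24.8 and 37.0 CPM in MI and 45.4, 39.0, 28.9 and 31.1 CPM in SS, with overlap (-0.63 ± 0.31 SE, adjusted p = 0.274). No neighbours in the order of levels differed by the test in either state (adjusted p = 0.0921 to 0.439 in MI and 0.107 to 0.793 in SS). Pairs further apart did differ. In MI cDC1 lay below moDC (edgeR adjusted p = 1.40e-04) and macrophages (3.85e-06), and cDC2 below macrophages (0.00371). In SS cDC1 lay below cDC2 (5.26e-04) and moDC (0.00144), and cDC2 above macrophages (0.0196). The difference of the MI effect on Cxcl10 among cell types was lost with SS numbers 1 and 4 alone (adjusted p = 0.0862) or 2 and 3 alone (0.0973).

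Cxcl1, Cxcl9 and Cxcl10 fell in cDC2 together with the macrophage markers, at 4129 to 7124 CPM in MI cDC2 and 17785 to 29029 CPM in SS cDC2. All 8 macrophage markers had reads in both groups. The part of the macrophage markers in these results was not tested. Cxcl16 was at a higher level in MI cDC2, and the part of the macrophage markers in that result was not tested either. Art3, which spans Cxcl10 on the other strand, stood at no more than 0.659 CPM in MI cDC2 and 3.73 CPM in SS cDC2. In cDC1 it fell to 0.0493 CPM in MI, against 1.89 CPM in SS (adjusted p = 0.0401).

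Cxcl12 was lower in MI in all 4 cell types, with every MI library below every SS library of its cell type. Such a gap held for 13.1% of all genes in cDC1, 23.1% in cDC2, 11.8% in moDC and 14.1% in macrophages. In cDC1 the values were 0, 0.197, 1.39 and 0.205 CPM in MI and 17.8, 33.0, 2.58 and 6.04 CPM in SS. In cDC2 they were 0.565, 0 and 0.674 CPM in MI and 14.0, 39.1, 2.08 and 7.87 CPM in SS. Both MI groups lay near 0, with 19 reads in all in cDC1 and 13 in cDC2. In moDC the values were 3.40, 2.67, 2.09 and 0.600 CPM in MI and 20.1, 80.6, 11.2 and 47.5 CPM in SS. In macrophages they were 5.24, 5.10, 2.58 and 6.32 CPM in MI and 18.2, 20.4, 13.9 and 34.4 CPM in SS.

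Cxcl12 fell by 4.97 ± 1.00 on the log2 scale in cDC1 (SE, edgeR adjusted p = 0.00150), by 5.20 ± 1.14 in cDC2 (0.00282) and by 4.18 ± 0.87 in moDC (0.00367). In macrophages the log2 fold change was -2.16 ± 0.79 and did not pass (adjusted p = 0.101; 0.00135 when macrophage libraries were fitted alone). The effect was not shown to differ among the cell types (adjusted p = 0.346). SS replicate 2 held the highest Cxcl12 of cDC1, cDC2 and moDC, and without it the log2 fold changes were -4.23, -4.23 and -3.57. Without MI replicate 3, the highest of MI cDC1, that in cDC1 was -6.65. Among cell types in MI, no neighbours in level differed by the test (moDC and macrophages 0.447, cDC1 and moDC 0.0994, cDC1 and cDC2 0.972), nor did any in SS (0.522 to 0.960). Further apart in level, cDC1 (edgeR adjusted p = 0.00704) and cDC2 (0.0217) lay below macrophages in MI.

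Stromal transcripts moved with Cxcl12. Summed fibroblast, mural and endothelial markers (24 genes) were 9.01 to 13.9 CPM in MI cDC1 and 132 to 488 CPM in SS cDC1. In moDC they were 74.99 to 112 CPM in MI and 169.9 to 634 CPM in SS, again without overlap. In cDC2 they were 45.1 to 60.8 CPM in MI and 56.7 to 203 CPM in SS, and in macrophages 108 to 141 CPM in MI and 104 to 241 CPM in SS. In MI cDC1 the fibroblast markers Pdgfra and Dpt, the mural markers Cspg4, Myh11 and Kcnj8 and the endothelial markers Tie1, Emcn and Cldn5 were at 0. Pdgfra, Rgs5, Kcnj8 and Emcn were at 0 in MI cDC2, and Pdgfra, Myh11 and Kcnj8 in MI moDC. All 24 had reads in each SS group. SS moDC replicate 2, with the highest Cxcl12 of all libraries (80.6 CPM), also had the highest stromal sum (634 CPM).

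With the log2 stromal sum as a covariate, the Cxcl12 fold change on the log2 scale was 1.53 in cDC1 (adjusted p = 0.948) and -1.46 in moDC (0.576), so both calls were lost. In these cell types stroma and state do not overlap, so the fall of Cxcl12 cannot be told apart from that of the stromal markers. In cDC2 the fold change remained past the threshold (-3.34, adjusted p = 0.0144), and in macrophages it passed it (-1.89, adjusted p = 0.0391). SS macrophage replicates 2 and 3 had stromal sums of 105 and 104 CPM, below all MI macrophages. Their Cxcl12, at 20.4 and 13.9 CPM, lay above all MI macrophages. Within the sum, endothelial markers averaged 42.6 CPM in MI and 64.2 CPM in SS macrophages, and fibroblast markers 68.1 and 68.3 CPM. The endothelial sum was 34.2 to 54.1 CPM in MI macrophages, and 57.8 and 44.9 CPM in SS replicates 2 and 3. Of the 8 endothelial markers 1 fell in macrophages and 7 were not called. Emcn had 1 read in MI macrophages and 66 in SS macrophages. SS cDC2 replicate 3, with a stromal sum of 56.7 CPM, within the MI range, had Cxcl12 at 2.08 CPM against at most 0.674 CPM in MI cDC2. Endothelial markers averaged 42.8 CPM of the mean stromal sum of 54.8 CPM in MI cDC2, and replicate 1 had reads for 3 of these 8. Whether the sorted cells make some of the marker transcripts themselves was not tested. The sum, as a covariate or as a match between libraries, may therefore not measure stroma alone.

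**Figure D4:**
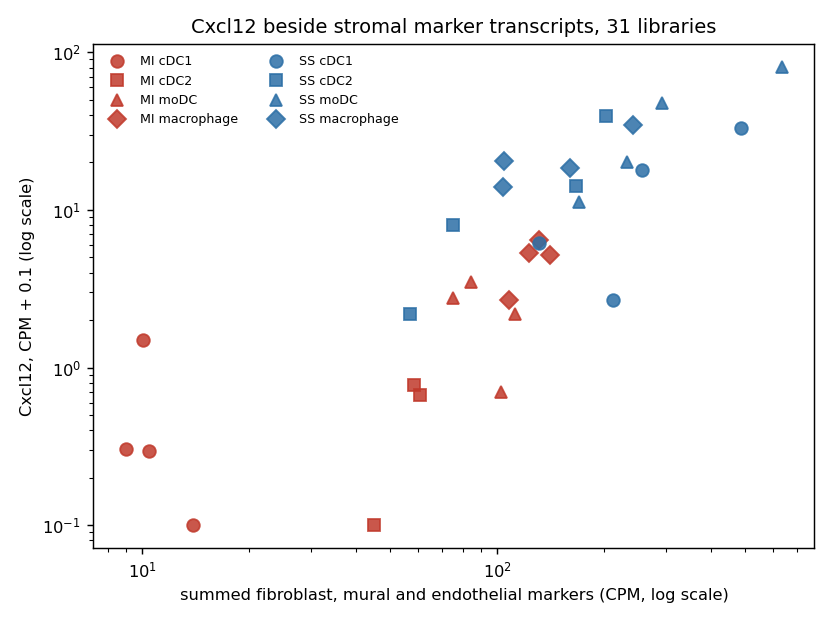
Cxcl12 (vertical axis, CPM plus 0.1, log scale) against the summed stromal markers (horizontal axis, CPM, log scale) in 31 libraries, MI in red and SS in blue, with 1 symbol per cell type. MI cDC1 sits at the lower left (9.01 to 13.9 CPM of markers). SS macrophages lie above MI macrophages, replicates 2 and 3 of them at stromal sums of 105 and 104 CPM.

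Cxcl16 rose after MI in cDC2, and in macrophages by a call close to the threshold, and was not called in cDC1 or moDC. In cDC2 it was at 803, 559.6 and 587 CPM in MI and at 173, 269, 376 and 275 CPM in SS, without overlap. It reached 649.8 ± 133 CPM in MI cDC2 (SD, n = 3), against 273 ± 82.8 CPM in SS cDC2 (n = 4), 2.38-fold higher (log2 fold change 1.25 ± 0.20 SE, edgeR adjusted p = 7.41e-05). The call held without any 1 of the 7 libraries (adjusted p 1.36e-05 to 0.00137). In macrophages it was at 896, 767, 796 and 892 CPM in MI and at 594, 594, 494 and 516 CPM in SS, again without overlap. The rise there was 1.52-fold (log2 fold change 0.61 ± 0.19 SE, adjusted p = 0.0463). It was lost without any 1 of the 8 libraries (adjusted p 0.0508 to 0.106, log2 fold change 0.57 to 0.66) and with upper-quartile (0.0858) or RLE factors (0.0539).

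In moDC Cxcl16 was at 915, 962, 1064 and 1084 CPM in MI and at 874, 976, 478 and 589 CPM in SS. SS replicate 2 lay among the MI libraries and the other SS libraries below them, and the test did not pass (log2 fold change 0.46 ± 0.19 SE, adjusted p = 0.171). In cDC1 the values were 459.6, 365, 367 and 335 CPM in MI and 345, 498, 437 and 336 CPM in SS, with overlap (-0.08 ± 0.19 SE, adjusted p = 0.886). The MI effect differed among cell types (adjusted p = 0.0140) and was lower in cDC1 than in cDC2 by 1.33 on the log2 scale (difference -1.33 ± 0.28 SE, adjusted p = 0.00305, where 4.21% of all genes were called). The order changed with it. In MI cDC1 was below cDC2 (adjusted p = 0.00431), and in SS cDC1 was above cDC2 (0.0247). The other neighbours in level did not differ by the test, cDC2 and macrophages (0.203) and moDC and macrophages (0.433) in MI, and cDC1 and macrophages (0.0599) and moDC and macrophages (0.169) in SS. Further apart in level, cDC1 lay below moDC in both states (edgeR adjusted p = 5.38e-07 in MI and 6.48e-04 in SS). So did cDC2 (0.0481 and 3.76e-06). Without MI cDC2 replicate 1, the highest MI cDC2 library, the adjusted p of the difference among cell types was 0.0534.

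Zmynd15, which overlaps the start of Cxcl16 on the other strand, was at 17.9 to 64.4 CPM in MI cDC2 and 9.64 to 19.3 CPM in SS cDC2 (log2 fold change 1.46, adjusted p = 0.120). In macrophages it was at 46.0 to 75.8 CPM in MI and 28.7 to 37.3 CPM in SS (0.74, adjusted p = 0.498). Its levels were far below those of Cxcl16, and how reads of the overlap were assigned is not given.

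The receptors and enzymes of these ligands were given by lists of 8 other CXC ligands, 8 receptors and 3 proteases. In cDC2 1 ligand of 5 tested rose (Cxcl14) and 1 fell (Pf4), and 1 receptor of 6 rose (Cxcr3), where 4.41% of all genes rose and 6.63% fell. In cDC1 no ligand was called and 1 receptor fell (Ackr3), where 2.16% of all genes rose and 6.73% fell. In moDC 2 ligands fell (Pf4 and Cxcl13), 1 receptor rose (Cxcr3), 1 fell (Cxcr2), and 1 protease rose (Adam17), where 1.52% of all genes rose and 3.32% fell. In macrophages 1 ligand rose (Cxcl11) and 2 fell (Pf4 and Cxcl13), 2 receptors rose (Cxcr4 and Cxcr3) and 1 fell (Cxcr2), and 1 protease rose (Dpp4), where 4.01% of all genes rose and 3.37% fell. Median log2 fold changes were -1.48, -0.97, -0.73 and -0.03 for ligands in cDC2, cDC1, moDC and macrophages, -0.74, -1.46, 0.40 and -0.58 for receptors, and 0.18, 0.16, 0.35 and 0.30 for proteases.

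Cxcr3, the receptor of Cxcl9 and Cxcl10, was mainly a cDC1 transcript, at 296 ± 18.1 CPM in MI cDC1 and 212 ± 24.7 CPM in SS cDC1 (SD, n = 4 each). It rose to 8.73 CPM in MI cDC2, against 3.50 CPM in SS cDC2 (edgeR adjusted p = 0.0386), to 23.5 CPM in MI moDC, against 6.32 CPM in SS moDC (0.00129), and to 14.5 CPM in MI macrophages, against 5.76 CPM in SS macrophages (0.0211). Cxcl11, another ligand of Cxcr3, rose to 3.77 ± 1.35 CPM in MI macrophages, against 0.752 ± 0.493 CPM in SS macrophages (adjusted p = 6.74e-04). In MI cDC1 it stood at 7.66 CPM, against 15.0 CPM in SS cDC1, a difference of the MI effect among cell types that passed (0.00107).

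Cxcr4, the receptor of Cxcl12, rose to 132 ± 11.7 CPM in MI macrophages, against 60.0 ± 9.11 CPM in SS macrophages (SD, n = 4 each, adjusted p = 5.68e-06), with an MI effect that varied among cell types (0.00837). In the other groups it was at 75.6 CPM in MI cDC1, 143 in MI cDC2 and 149 in MI moDC, and at 59.8, 131 and 119 CPM in the same cell types in SS. Ackr3 fell to 0.0986 CPM in MI cDC1, against 2.63 CPM in SS cDC1 (adjusted p = 0.0217). Stromal cells also make Ackr3, and the stromal sum of these libraries averaged 10.8 CPM in MI and 272 CPM in SS without overlap, so this fall cannot be told apart from that of the stromal markers. Cxcr2, which neutrophils carry, fell to 1.13 CPM in MI macrophages, against 5.61 CPM in SS (0.0288), and to 1.46 CPM in MI moDC, against 7.78 CPM in SS (0.0297). Cxcr6, the receptor of Cxcl16, was at most 3.14 CPM in any group (SS cDC2). In moDC it had 0 reads in MI and 79 reads in SS, at least 23.1-fold lower in MI against the floor of 3 counts over the group, and the test did not pass (adjusted p = 0.0515). It was not called in the other cell types (0.277 to 0.487).

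The enzymes that shed Cxcl16 were present throughout. Adam10 averaged 146 to 301 CPM in MI groups and 130.3 to 281 CPM in SS groups. Adam17 rose to 345 CPM in MI moDC, against 271 CPM in SS moDC (adjusted p = 0.0449). Dpp4, which trims Cxcl9, Cxcl10 and Cxcl12, was highest in cDC1, at 621 CPM in MI and 472 CPM in SS. It rose to 9.49 ± 3.75 CPM in MI macrophages, against 1.95 ± 1.78 CPM in SS macrophages (adjusted p = 0.00154). Among ligands, Pf4 (platelet factor 4) fell to 217 CPM in MI macrophages, against 582 CPM in SS (0.0474), to 34.5 CPM in MI moDC, against 127 CPM in SS (0.0130), and to 1.34 CPM in MI cDC2, against 12.0 CPM in SS (0.00310). The macrophage marker sum in cDC2 averaged 5830 CPM in MI and 23241 CPM in SS, and its part in the Pf4 result there was not tested. Cxcl13, which draws B cells, fell to 10.7 CPM in MI macrophages, against 58.6 CPM in SS (0.0499). In moDC it fell to 2.87 CPM in MI, against 27.5 CPM in SS (0.0175). The macrophage calls of Pf4 and Cxcl13 and the moDC call of Adam17 lay close to the threshold. Calls of genes outside the 7 chemokines were not checked under other settings or without single libraries. Cxcl14 rose to 24.0 CPM in MI cDC2, against 12.2 CPM in SS (0.0184).

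**Figure D5:**
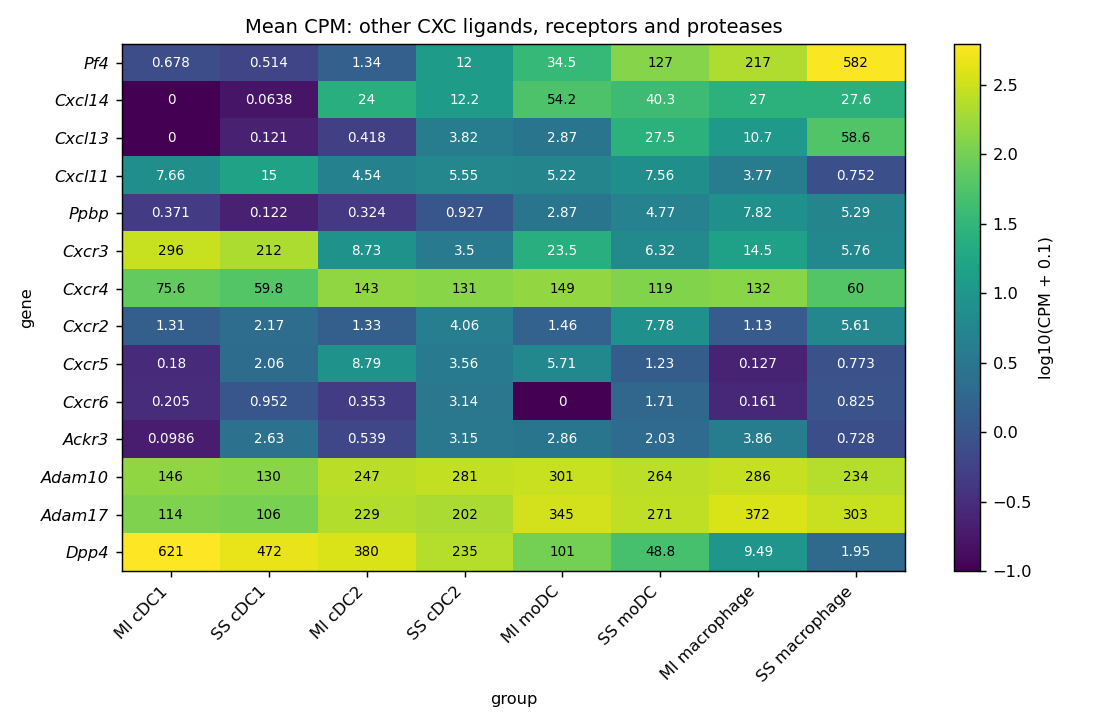
Mean CPM of other CXC ligands, receptors and proteases (numbers in cells; colour on a log10 scale after adding 0.1) by gene and group, MI left of SS; levels can be compared along a row, not between genes. Cxcr3 and Dpp4 peak in cDC1 (296 and 621 CPM in MI), and Pf4 in macrophages (217 CPM in MI, 582 CPM in SS).

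Genes of the pathways that induce these chemokines were read from 4 further lists. Of all genes, 4.41% rose and 6.63% fell in cDC2, 2.16% and 6.73% in cDC1, 1.52% and 3.32% in moDC, and 4.01% and 3.37% in macrophages. Of 18 NF-kB genes, 3 rose and 4 fell in cDC2, 1 rose and 11 fell in cDC1, 0 rose and 4 fell in moDC, and 1 rose and 1 fell in macrophages (median log2 fold changes 0.32, -0.85, -0.06 and 0.10). In cDC1 the falls included Nfkbia (log2 fold change -1.43, edgeR adjusted p = 2.37e-08), Nfkbiz (-2.29, 1.53e-06), Nfkbid (-1.84, 1.09e-05) and the cytokine gene Tnf (-2.31, 2.89e-08). Il1a fell in cDC2 (-2.31), moDC (-2.004) and macrophages (-1.52), and Icam1 in cDC2 (-1.65) and moDC (-0.96). Il6 fell in cDC2 (-3.25) and in moDC (-1.72), and Ptgs2 rose in macrophages (1.22).

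Of 18 interferon gamma genes, 2 rose and 4 fell in cDC2 (11.0% of all genes were called), 1 rose and 5 fell in cDC1 (8.88%), 1 rose and 2 fell in moDC (4.84%) and 0 were called in macrophages (7.39%) (medians -0.11, -0.16, -0.09 and 0.06). The guanylate-binding protein gene Gbp4 fell in cDC2 (-1.85, adjusted p = 0.00108), cDC1 (-1.47, 0.00481) and moDC (-1.36, 0.0119). The transcription factor gene Irf1 fell in cDC1 (-1.34, 9.21e-05), and Ciita rose in cDC2 (1.06, 6.89e-04). Beside the same shares of all genes, of 12 type I interferon genes 3 rose and 3 fell in cDC2, 3 rose in cDC1, 1 rose and 1 fell in moDC, and 5 rose in macrophages (medians -0.10, 0.60, -0.09 and 0.66). Ifit2 rose in all 4 cell types, by 1.34 in cDC2, 0.89 in cDC1, 1.30 in moDC and 1.74 in macrophages on the log2 scale, and Oasl1 fell in cDC2 (-2.02) and moDC (-1.16). Of 12 immediate early and heat shock genes, 4 fell in cDC2, 6 in cDC1, 5 in moDC and 4 in macrophages (medians -0.16, -0.78, -0.70 and -0.28), and none rose. Dnajb1 fell in each, by 3.12, 2.91, 3.20 and 2.76.

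The 3 genes whose log2 CPM followed each chemokine most closely over the 31 libraries, of 12303 searched, were named by rule. They were Timp2, Cd14 and Msr1 for Cxcl1 (Pearson r = 0.980 to 0.978) and Tlr8, Ctsa and Sirpa for Cxcl2 (0.987 to 0.984). For Cxcl3 they were Naip2, Nr1h3 and F10 (each 0.890), and for Cxcl9 Dnase1l3, Ptma and Id2 (0.861 to 0.820). For Cxcl10 they were Mapk6, Pnrc1 and Lpl (0.865 to 0.837), for Cxcl12 Lims2, Tspan7 and Ptrf (0.916 to 0.899), and for Cxcl16 they included Cttnbp2nl and Tgfbi (0.871 and 0.851). Cxcl1 and Cxcl2 followed each other (r = 0.970), but the deviations of the libraries from their group means were less alike (r = 0.40), so most of the likeness lay between groups. Cxcl9 and Cxcl10 did not follow each other (r = -0.0666). These values describe 31 libraries that share cell types and states.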

How the data were processed

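RNA-seq reads were counted in 31 libraries of cells sorted by flow cytometry. Per the labels' protocols, each library began with 4 ng of total RNA, was amplified with SMART-Seq v4 and was read as single reads of 75 nt. The submitters' processing notes name TopHat2 2.1.0, SAMtools 0.1.18, FastQC 0.11.4, Trimmomatic 0.35 and the mm10 genome. No source used here states the counter, its annotation or its treatment of strand and of reads with several matches. The authors deposited whole-number read counts per gene symbol, not normalized. The 5 entries for reads in no gene were kept out of all fits, and ambiguous reads made up 0.857% to 1.21% of a library.

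Tests ran in R 4.3.3 with edgeR 4.0.16 (robust quasi-likelihood fit, TMM factors) on the counts, with a mean for each of 8 groups, after filterByExpr (minimum count 10) left 13039 genes, all 7 chemokines among them. P-values were adjusted by Benjamini-Hochberg over all genes tested, and adjusted p under 0.05 counted as called. CPM used TMM factors, and log2 CPM a prior count of 2. A fold against 0 reads is a bound against 3 counts over the group. Without molecular identifiers PCR copies are counted as reads, so floors and intervals cover counting error only. Replicates of a group differed beyond sampling noise in each group (chi-square over its degrees of freedom 13.6 to 45.5). On simulated data with known changes between MI and SS, 87.7% to 92.3% of 4-fold and 9.68% to 25.0% of 2-fold changes were recovered, by cell type. Of 1.5-fold changes 0% to 3.17% were recovered. Unlike the data, the simulation gave all genes the same dispersion (0.116) and each gene the same mean in all groups before the changes.

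Named genes were the 7 chemokines, up to 4 called genes per list and comparison by smallest adjusted p, receptors and ligands whose mean reached 10 CPM in some group, and the 3 closest genes per chemokine. Not all are printed, 1 of the closest genes of Cxcl16 is not reported here, and Ackr3, Cxcl11, Cxcr2, Cxcr6, Art3 and Zmynd15 were named after their values were seen. Alternatives were DESeq2 1.42.0, other scaling factors, no filter, a replicate block, a stromal covariate, parts of the SS libraries, a cell type fitted alone and each library left out. The chemokines and lists were chosen with earlier results of these data known.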

Additional observations from a re-analysis of the deposited data

Results flagged for a closer look

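In 5 of 47 groups of 4 libraries with differing values, 1 library stood far from the others by Dixon's criterion, which chance meets in about 1 group in 20. Cxcl1 was at 109 CPM in MI moDC replicate 2, with the others at 92.6 to 94.9 CPM. Cxcl1 was at 0.296 CPM (3 reads) in MI cDC1 replicate 2, with no read in the others. When the other values are tied, any read meets the criterion, so the rate of 1 in 20 does not apply to this flag. Cxcl2 was at 383 CPM in SS macrophage replicate 2, with the others at 234 to 249.9 CPM. Cxcl9 was at 1.26 CPM in MI macrophage replicate 4, against 6.32 to 7.01 CPM, and the same library had the highest Cxcl10 of its group (46.8 CPM). Cxcl12 was at 1.39 CPM in MI cDC1 replicate 3, against at most 0.205 CPM.

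The effect of MI differed among the 4 cell types for Cxcl1 (edgeR adjusted p = 0.0428), Cxcl10 (0.00882) and Cxcl16 (0.0140). Cxcl10 had a log2 fold change of -1.72 in cDC2 and 0.56 in macrophages, and Cxcl16 of -0.08 in cDC1 and 1.25 in cDC2.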

How the results depend on the processing

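Of 643 values refitted without 1 library, 597 kept their direction and their side of the threshold, 33 lost the call, 3 gained it and 10 changed sign. Of 451 values under 11 other settings, 406 kept both, 19 lost the call, 11 gained it and 15 changed sign. The count of chemokines called in macrophages, 1 in the report, was 0 with upper-quartile or RLE factors, with SS numbers 2 and 3 alone and with the SS libraries numbered 2 left out, a setting chosen after seeing the data. It was 2 with the stromal covariate, with SS numbers 1 and 4 alone and in macrophage libraries fitted alone, and 0 to 0 without 1 library. In moDC the count was 0 with the stromal covariate. In cDC1 it was 4 with DESeq2, 0 with the stromal covariate, 1 without the SS libraries numbered 2, and 1 to 3 without 1 library. In cDC2 it was 3 with SS numbers 1 and 4 alone and 3 to 6 without 1 library. The count of chemokines whose MI effect differed among cell types was 1 with the stromal covariate and 1 with SS numbers 1 and 4 alone. With a replicate block, the macrophage count was 0 (Cxcl16 0.61, edgeR adjusted p = 0.0528), those in moDC, cDC1 and cDC2 were 1, 2 and 5, and the log2 fold change of Cxcl3 in macrophages turned to -0.36. MI and SS libraries were not paired by replicate number: over 15 such pairs with the same number, deviations from the group means had r of -0.047 to 0.065. Between cell types with the same number the median r was 0.108 in SS (14 of 24 pairs over 0.1, highest 0.203) and 0.028 in MI (1 of 21). With different numbers it was -0.029 in SS. Mean r with libraries of the other cell types was highest for the library's own number in 13 of 16 SS and 9 of 15 MI libraries. With the block, 6 chemokines differed among cell types in SS and 7 in MI, as without it. Tests of pairs of cell types, and of pairwise differences in the MI effect, were fitted without the block only.

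Signs turned almost only for values near 0. In macrophages Cxcl3 was -0.12 and Cxcl1 0.16 with SS numbers 1 and 4, Cxcl9 was -0.12 with SS numbers 2 and 3, and Cxcl1 was 0.12 without the SS libraries numbered 2. In moDC Cxcl2 was -0.0180 with DESeq2, -0.0182 with RLE factors, -0.0463 with upper-quartile factors and -0.0376 with SS numbers 2 and 3, Cxcl3 was 0.42 with SS numbers 1 and 4, and Cxcl1 was 0.0239 without the SS libraries numbered 2. In cDC1 Cxcl16 was 0.36 with the stromal covariate, 0.16 with SS numbers 1 and 4 and 0.0328 without the SS libraries numbered 2. The exception was Cxcl12 in cDC1, at 1.53 with the stromal covariate. Without 1 library, Cxcl3 ranged from -0.87 to 0.78 and Cxcl1 from -0.22 to 0.13 in macrophages, Cxcl2 from -0.12 to 0.11, Cxcl3 from -0.48 to 0.17 and Cxcl1 from -0.18 to 0.0170 in moDC, and Cxcl16 from -0.17 to 0.0342 in cDC1. Beyond the settings with fewer samples, the cause was not tested. Few reads lie behind Cxcl1 in MI cDC1 (3) and Cxcl12 in MI cDC1 (19) and MI cDC2 (13), and none behind Cxcl3 in cDC1.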
